A study of Homo sapiens with 6 samples.

Results

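Collagens are the trimeric proteins that give the extracellular matrix its strength. Their genes are named COL, a type number, A and a chain number. Of the 33706 genes in the deposited expression table, 37 have such a symbol and are described here, whatever their level. RNA sequencing covered 6 cultures titled as the human ovarian cancer line ES2 and collected after 7 days, 1 library per group. The groups are Control, T and G without R, and R, TR and GR with it. The Control had no drug, and the labels name T, G (described as G4) and R alone and TR and GR as further groups. TR and GR are read here as T with R and G with R, and T and G as the oligos, none of which the labels spell out. The series concerns T-oligos, DNA oligonucleotides, and RHPS4, a small molecule that binds G-quadruplexes, and the letters are kept because the labels do not define them.

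Each collagen molecule is a triple helix of 3 chains, which come from 1 gene or from several genes of the same type. The chains are hydroxylated and folded in the endoplasmic reticulum, exported, trimmed, and crosslinked outside the cell. Types I, III and V form fibrils, type IV forms the sheet of basement membranes, and type VI forms beaded microfilaments around cells. Fibril-associated collagens sit on fibril surfaces, and transmembrane collagens span the plasma membrane. Cultured mesenchymal cells typically make much type I and type VI collagen, and most epithelial cells make basement membrane collagen.

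Without replicates in any group, differences between single libraries cannot be checked against replicate error. Library totals ran from 73213048 to 83976498 counts, and collagen genes took 0.277% (95% Wilson interval 0.2755 to 0.2779) in T to 0.480% (0.4789 to 0.4819) in G. Intervals cover counting error only. Against the titles, the source names call every library other than Control and T SKOV3, another ovarian cancer line. The receptor gene ERBB2, amplified in SKOV3, lay between 0.146 and 0.721 FPKM, and CDKN2A between 74.4 and 146 FPKM. ES2 is labelled an epithelial cell, and its epithelial markers were mixed. EPCAM and CDH1, which mark epithelium, lay at 0.06 FPKM or less. The 7 epithelial markers in the table summed to 198.4 FPKM in Control, the lowest sum, and 498.4 FPKM in GR, the highest. Nearly all of this came from the keratin genes KRT7, KRT18 and KRT8, the 3 of 7 with a mean of at least 1 FPKM. Leukocyte markers summed to 0 to 0.21 FPKM and endothelial markers to 6.19 to 19.6 FPKM, the latter nearly all from CDH5, the gene of VE-cadherin. In these bulk samples fewer cells of a type and less RNA per cell cannot be told apart.

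Of the 37 collagen genes, 15 had a mean level of at least 1 FPKM, the read count per transcript length and library size, and 17 reached 1 FPKM in a library. The threshold of 1 FPKM fell between COL9A3, with a mean of 1.18 FPKM, and COL16A1, with 0.909 FPKM. All 37 were counted in at least 1 library, 28 to 34 of them in any single library. Type VI genes made up 55.5% of summed collagen FPKM in Control, 71.5% in T, 59.3% in G, 77.3% in R, 76.5% in TR and 65.7% in GR. Type I took the next largest share in Control, T, G and GR, with 25.5%, 9.01%, 23.5% and 14.7%. In R and TR type IV came next, with 6.33% and 6.73%, ahead of type I with 4.46% and 5.87%. Summed collagen FPKM was 337 in Control, 338 in T, 579.5 in G, 416 in R, 504 in TR and 485 in GR, so Control and T were the lowest libraries and G the highest. Without COL1A1 the sum was 443 in G and 474 in TR, which was then the highest.

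**Figure D1:**
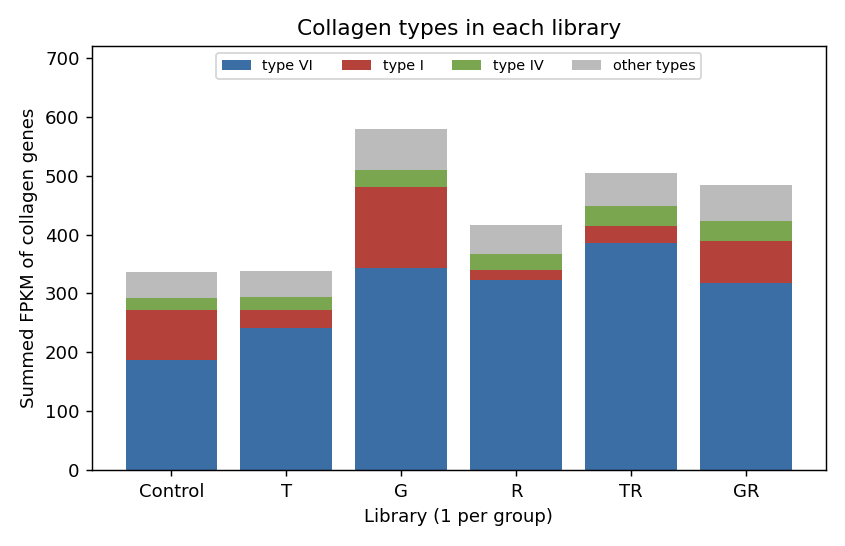
Stacked bars give the summed FPKM of the 37 collagen genes in each library, split into type VI, type I, type IV and all other types, with 1 library per bar and no error. The type I part is 23.5% of the bar in G and 4.46% in R.

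**Figure D2:**
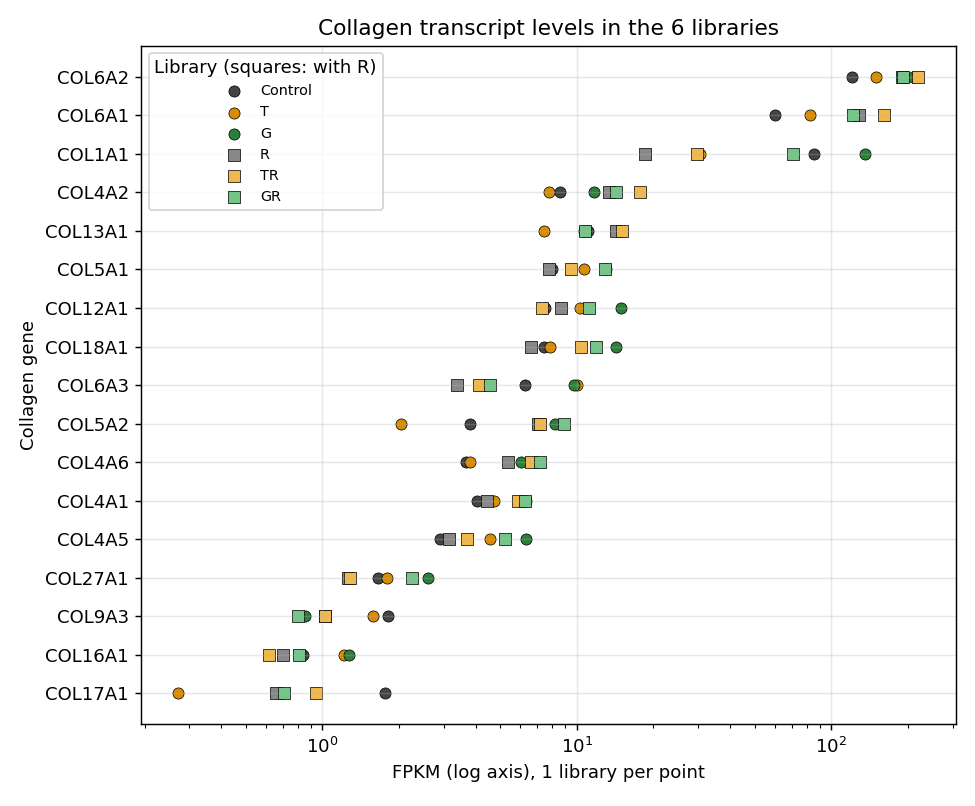
Points give the FPKM (log axis) of the 17 collagen genes that reached 1 FPKM in a library, in each of the 6 libraries, with squares for libraries with R. COL6A2 is highest in every library, and COL1A1 and COL17A1 are the most widely spread.

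Type VI chains had the highest levels. Coordinates are those of the deposited table, which overlap the same genes of GENCODE v29 on GRCh38 for all 37. COL6A2 (ENSG00000142173, chromosome 21, 46098112 to 46132848, plus strand) encodes a chain of type VI microfilaments and had the highest collagen level in every library. The level was 120.3, 149.6 and 209 FPKM in Control, T and G and 189.7, 220.5 and 192 FPKM in R, TR and GR. COL6A1, the gene of its partner chain, also on chromosome 21 (ENSG00000142156, chromosome 21, 45981770 to 46005050, plus strand), stood at 60.4, 82.3 and 124 FPKM in Control, T and G and at 129, 161 and 121 FPKM in R, TR and GR. Both genes were lowest in Control and next lowest in T, and the G library overlapped those with R.

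The third abundant chain gene of that type, COL6A3 (ENSG00000163359, chromosome 2, 237324003 to 237414328, minus strand), lay the other way. Its level was 6.28, 9.99 and 9.71 FPKM in Control, T and G and 3.37, 4.12 and 4.57 FPKM in R, TR and GR, so every library with R was below every library without it. The log2 ratio of FPKM + 1 with R against without was -0.74 in R against Control, -1.10 in TR against T and -0.94 in GR against G, a mean of -0.93 ± 0.18 (SD, n = 3 pairs of libraries). The same ratios were 1.08, 0.96 and -0.04 for COL6A1 and 0.65, 0.56 and -0.12 for COL6A2, near 0 with G and above 0 in the other pairs.

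The windows before the starts of COL6A2 and COL6A3 are shown because these 2 chains of 1 molecule lay in opposite directions in R against Control and in TR against T. In GR against G both were lower. They are the 250 bases before the RefSeq start (GRCh38.p14), read 5′ to 3′ on the gene's strand, at chr21:46097862-46098111 (plus strand) and chr2:237414165-237414414 (minus strand). Capitals mark the CCAAT box, the GC box (GGGCGG), the TATA motif (TATAAA) or 4 runs of GGG separated by 1 to 7 bases, on either strand, and overlapping matches run together.
COL6A2: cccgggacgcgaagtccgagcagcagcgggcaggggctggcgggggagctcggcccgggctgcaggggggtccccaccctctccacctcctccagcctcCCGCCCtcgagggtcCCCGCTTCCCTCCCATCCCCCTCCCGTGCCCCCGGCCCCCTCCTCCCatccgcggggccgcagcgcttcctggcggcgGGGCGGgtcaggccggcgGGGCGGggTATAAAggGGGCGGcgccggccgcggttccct
COL6A3: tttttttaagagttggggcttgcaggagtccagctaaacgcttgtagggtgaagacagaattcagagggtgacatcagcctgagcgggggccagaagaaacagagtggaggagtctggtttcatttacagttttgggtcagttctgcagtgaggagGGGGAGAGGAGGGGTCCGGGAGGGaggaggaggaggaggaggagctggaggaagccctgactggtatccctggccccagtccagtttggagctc
The COL6A2 window holds 4 copies of GGGCGG and 1 TATAAA, the COL6A3 window neither, and both hold a match to 4 runs of GGG. GC content was 79.6% in the COL6A2 window and 56.0% in that of COL6A3. Among all 35116 windows of this length, 23.3% hold such runs, 42.6% GGGCGG, 32.0% CCAAT and 10.7% TATAAA. Of the 11 collagen genes with a mean of at least 1 FPKM and a window in that table, 8 hold 4 runs of GGG, 8 hold GGGCGG, 4 hold CCAAT and 3 hold TATAAA. Of all 28 collagen genes with a window, 17 hold such runs, 19 GGGCGG, 9 CCAAT and 7 TATAAA. The windows of all genes were not matched to these for level or GC content. A match describes letters and is no evidence of binding.

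Fibrillar chains were dominated by COL1A1 (ENSG00000108821, chromosome 17, 50184101 to 50201632, minus strand), the main chain of type I collagen. The level was 85.7, 30.5 and 136 FPKM in Control, T and G and 18.6, 29.6 and 71.1 FPKM in R, TR and GR. Control and G were high, T and TR lay close together, and R was lowest. The log2 ratio was -2.15 in R against Control, -0.04 in TR against T and -0.93 in GR against G, with a mean of -1.04 ± 1.06 (SD, n = 3 pairs), so the spread is as large as the mean. COL1A2, the gene of the chain that usually joins COL1A1 in the type I helix, was nearly undetected, with 16, 4 and 10 counts in Control, T and G and 0, 0 and 0 in R, TR and GR. COL1A2 was set against a floor of 3 counts per library, scaled to library totals. It was then 5.49-fold lower in R than in Control, 1.45-fold lower in TR than in T and 3.56-fold lower in GR than in G. The 16, 4 and 10 counts were taken as exact, so these values are not strict lower bounds. COL3A1, the gene of type III collagen, had 0 to 6 counts in each library. COL1A1 overlaps a gene on the other strand. The kit marked strand, but the sources used here do not say whether counting used it.

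Type V chains, which set the diameter of type I fibrils, did not follow each other across libraries. COL5A1 stood at 7.98, 10.7 and 13.0 FPKM in Control, T and G and at 7.75, 9.45 and 12.9 FPKM in R, TR and GR, with ratios for R of -0.04, -0.16 and -0.01. COL5A2 stood at 3.79, 2.04 and 8.24 FPKM without R and 7.06, 7.17 and 8.94 FPKM with it, in the same order of libraries. The T library had the lowest COL5A2 level, and G lay among the libraries with R. COL27A1, a minor fibrillar collagen, stood at 1.65, 1.80 and 2.59 FPKM without R and 1.26, 1.28 and 2.26 with it, highest in G and GR.

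Basement membrane chains came from 4 expressed genes in 2 head-to-head pairs. COL4A2 (ENSG00000134871, chromosome 13, 110305812 to 110513209, plus strand) stood at 8.57, 7.77 and 11.6 FPKM in Control, T and G and at 13.4, 17.7 and 14.2 FPKM in R, TR and GR, so all libraries with R were above all without. COL4A1, its partner in the commonest type IV helix (ENSG00000187498, chromosome 13, 110148963 to 110307200, minus strand), stood at 4.06, 4.71 and 6.31 and at 4.44, 5.85 and 6.25 FPKM in the same order, with the groups overlapping. COL4A6 had 3.68, 3.79 and 6.04 FPKM without R and 5.37, 6.60 and 7.14 with it. COL4A5, the gene mutated in X-linked Alport syndrome, had 2.90, 4.55 and 6.34 FPKM without R and 3.14, 3.69 and 5.20 with it. COL4A3 and COL4A4, the chains of the kidney filter, were low, COL4A3 with 5, 10 and 11 counts in Control, T and G and 0, 0 and 0 in R, TR and GR. COL4A4 had 41, 53 and 112 counts in Control, T and G and 9, 21 and 31 in R, TR and GR.

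The sequences between or before these divergent starts are shown because the 2 genes of a pair share them. By RefSeq starts 126 bases lie between COL4A1 and COL4A2, at chr13:110307158-110307283, read on the plus strand, the strand of COL4A2. COL4A5 and the nearest COL4A6 start are 379 bases apart, and the window shown is the 250 bases before COL4A5, at chrX:108439588-108439837 (plus strand). Capitals mark the same motifs as above.
COL4A1 to COL4A2: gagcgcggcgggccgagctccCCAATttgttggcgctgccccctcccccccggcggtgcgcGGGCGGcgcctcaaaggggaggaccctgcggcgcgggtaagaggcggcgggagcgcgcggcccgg
COL4A5: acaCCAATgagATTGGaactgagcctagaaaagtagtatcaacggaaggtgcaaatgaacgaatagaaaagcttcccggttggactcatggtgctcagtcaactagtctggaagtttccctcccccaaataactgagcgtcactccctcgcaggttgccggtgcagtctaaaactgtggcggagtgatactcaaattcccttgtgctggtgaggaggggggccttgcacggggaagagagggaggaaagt
The shared COL4A1 and COL4A2 stretch is 80.2% GC with 1 CCAAT and 1 GGGCGG, and the COL4A5 window is 51.2% GC with 2 matches to CCAAT, 1 on each strand. By the table's coordinates COL4A1 and COL4A2 also overlap on opposite strands, so their reads could be mixed if strand was not used.

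Other collagens with a mean of at least 1 FPKM had several roles. COL12A1, a fibril-associated collagen, stood at 7.52, 10.3 and 14.9 FPKM without R and 8.63, 7.29 and 11.1 with it, highest in G. COL18A1, a basement membrane proteoglycan whose end fragment is endostatin, stood at 7.45, 7.83 and 14.3 and 6.60, 10.4 and 11.9 FPKM. COL13A1, a transmembrane collagen of adhesion sites, had 11.1, 7.43 and 10.7 FPKM without R and 14.3, 15.1 and 10.7 with it, and G and GR were nearly equal. COL9A3, a cartilage fibril-associated chain, stood at 1.81, 1.58 and 0.857 FPKM without R and 1.02, 1.02 and 0.798 with it, lowest in G and GR. COL16A1, another fibril-associated collagen, reached 1.27 FPKM in G, and COL17A1, the hemidesmosome collagen, ran from 0.271 FPKM in T to 1.76 in Control.

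The remaining 20 genes stayed under 1 FPKM in every library. COL10A1, the growth plate collagen, had 51, 17 and 129 counts in Control, T and G and 282, 209 and 117 in R, TR and GR, so R and TR were highest and T lowest. COL25A1, a transmembrane collagen of neurons, had 66, 238 and 386 counts in Control, T and G and 30, 35 and 49 in R, TR and GR, with every library with R below the others. COL7A1, which forms the anchoring fibrils of skin, had 32, 109 and 129 counts in Control, T and G and 50, 127 and 296 in R, TR and GR. COL8A1, a network collagen of vessels and cornea, had 75, 86 and 456 counts in Control, T and G and 140, 199 and 350 in R, TR and GR, highest in G and GR. COL19A1, a fibril-associated collagen, had 54, 114 and 121 counts in Control, T and G and 40, 28 and 38 in R, TR and GR, and COL21A1, of the same class, had 12, 128 and 34 counts in Control, T and G and 14, 12 and 20 in R, TR and GR, its one high library being T. The cartilage collagen COL9A2 ran from 91 to 276 counts, COL11A2 from 26 to 121 and COL8A2 from 13 to 57. COL28A1 had 17, 17 and 4 counts in Control, T and G and 0, 0 and 0 in R, TR and GR. Against the same floor COL28A1 was 5.83-fold lower in R than in Control and 6.17-fold lower in TR than in T. It was 1.42-fold lower in GR than in G, and its 17, 17 and 4 counts were again taken as exact. COL5A3 was counted only in G and GR, with 10 and 26 counts. COL15A1, COL24A1, COL20A1 and COL6A6 reached at most 15, 10, 11 and 10 counts, and COL14A1 had 5 counts in GR alone. For the R library, 0 counts leave room for a share of 3.6e-06% (3 counts).

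Libraries with and without R were compared across the 3 oligo backgrounds. No collagen gene was called (edgeR quasi-likelihood test on an additive model of oligo and R, Benjamini-Hochberg adjusted p under 0.05), against 2.5% of 20922 genes tested, 523 in number. Of the 37 genes 31 passed the filter on low counts and were tested. At an unadjusted p under 0.05 there were 14, of which 8 lay higher and 6 lower with R, which is 45.2% against 27.2% of all genes. The lowest adjusted p was 0.0566, for COL25A1 (-2.21, SE 0.51, log2 fold change), followed by 0.0605 for COL6A3 (-0.88, SE 0.21) and 0.0825 for COL4A2 (0.91, SE 0.26). COL5A2 had a fold change of 1.14, SE 0.36 (adjusted p = 0.0964), COL6A1 one of 0.88, SE 0.29 (0.103), COL4A6 one of 0.73, SE 0.24 (0.106) and COL10A1 one of 2.11, SE 0.76 (0.127). COL1A1 stood at -0.86, SE 0.39 (adjusted p = 0.198). The median over the 31 tested genes was 0.12, beside -0.06 over all genes tested, and it was -0.082 with a trend in GC content and length removed.

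DESeq2 with the same model called 7 of the 27 collagen genes with an adjusted p for R, where it called 17.8% of all genes with one. COL10A1 (adjusted p = 0.00998), COL4A2 (0.0102), COL4A6 (0.0348), COL5A2 (0.00764) and COL6A1 (0.0218) were called higher, and COL25A1 (0.00124) and COL6A3 (0.00342) lower. The edgeR model has 2 residual degrees of freedom. Its p-values judge the difference for R, T or G against a spread taken from the departure from additivity between these 6 libraries. That spread is not replicate error. Without the GR library edgeR called COL10A1, COL25A1, COL4A2, COL5A2 and COL6A1, and without G it called these genes other than COL25A1, both estimates resting on the other 2 backgrounds. In these fits it called 8.99% of all genes without GR and 10.1% without G. By source name only GR against G keeps 1 cell line among the R pairs, and with the source-name line as a term no collagen gene was called and the median was -0.14.

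In the pairs of libraries, genes were counted that differed at least 2-fold on the scale of FPKM + 1, which shrinks the differences of low genes. In R against Control COL6A1 was higher and COL1A1 lower, 2 of 17 against 9.29% of 13259 genes. In TR against T COL4A2 and COL5A2 were higher and COL6A3 lower, 3 of 17 against 16.9%, and in GR against G there was none, against 3.38%. With a pseudocount of 0.1 COL13A1 and COL17A1 joined the higher genes in TR against T, 5 of 17 against 31.0% of all genes. COL6A3 was then 2-fold lower in GR against G, 1 of 17 against 9.58%. With median-ratio scaled counts + 10 COL6A3 was not 2-fold lower in TR against T. The median ratio of the 17 was 0.09, 0.26 and -0.05 in the 3 pairs, beside -0.13, -0.17 and -0.01 for all genes. Higher in every pair were COL4A2, COL13A1, COL5A2 and COL4A6, 4 of 17 against 22.4% of all genes, and lower in every pair were COL1A1, COL5A1, COL6A3, COL27A1, COL9A3 and COL16A1, 6 of 17 against 34.9%. Among the 17, libraries with R lay wholly above the others for COL4A2 alone, where 13.5% of all genes did. They lay wholly below for COL6A3 and COL16A1, where 18.7% did. These shares lie close to those of all genes or below them. GR against G gave COL13A1 a ratio of 0.00478 and COL5A1 one of -0.01.

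**Figure D3:**
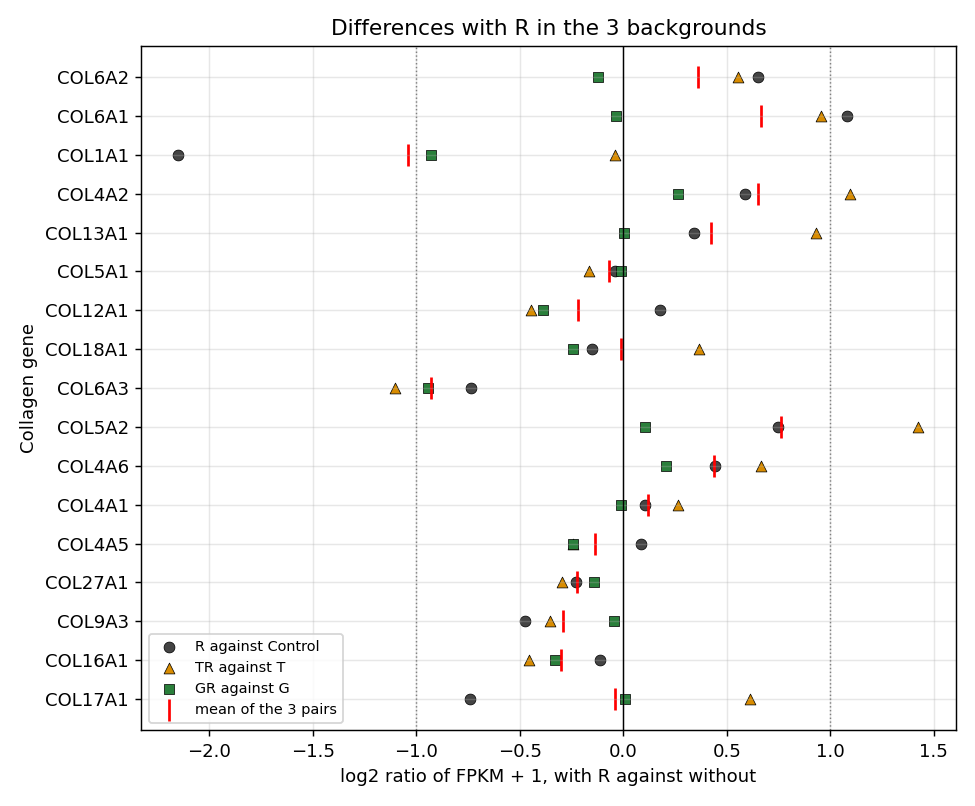
For the 17 collagen genes that reached 1 FPKM in a library, points give the log2 ratio of FPKM + 1 with R against without R in each of the 3 backgrounds, red bars their mean, and dotted lines a 2-fold difference. COL6A3 lies between -1.10 and -0.74 in all 3 pairs, while COL1A1 runs from -2.15 to -0.04.

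The differences with R varied with GC content. Collagen transcripts are rich in G and C, with a median of 55.9% over the tested members against 48.1% over all tested genes, and long, with a median longest transcript of 6425 bases against 2882.5. Across the 31 members the fold change for R had a Spearman correlation of 0.39 with GC content (all genes 0.27), a description over genes that share these 6 libraries. With the trend removed the fold change of COL6A2 for R was 0.14 in place of 0.57, that of COL6A1 0.53 in place of 0.88, and that of COL4A2 0.63 in place of 0.91. COL5A2 stood at 1.22 and COL6A3 at -0.94, both at least as far from 0 as before. COL18A1 and COL5A1 took the opposite sign, -0.20 and -0.10.

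Ratios between chains of 1 collagen type were compared because they do not depend on how libraries are scaled. Of 6 ratios, 5 had no overlap between libraries with and without R. The share of other gene pairs without overlap was not computed, and 2 of the 5 share COL6A1. The log2 ratio of FPKM of COL6A3 to COL6A1 was -3.27, -3.04 and -3.68 in Control, T and G and -5.26, -5.28 and -4.73 in R, TR and GR, a mean difference of -1.76 ± 0.63 (SD, n = 3 pairs). COL6A3 therefore stood at 0.104, 0.121 and 0.0780 of the COL6A1 level without R and at 0.0261, 0.0257 and 0.0377 with it. For COL6A2 to COL6A1 the difference was -0.31 ± 0.19.

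In both type IV pairs the chain with the higher GC content made up more of its pair with R than without. COL4A2 to COL4A1 was 1.08, 0.72 and 0.88 on the log2 scale without R and 1.59, 1.60 and 1.18 with it, a difference of 0.56 ± 0.29. COL4A6 to COL4A5 was 0.34, -0.26 and -0.07 and 0.77, 0.84 and 0.46, a difference of 0.69 ± 0.36 (SD, n = 3 pairs). COL5A2 to COL5A1 was -1.07, -2.39 and -0.66 without R and -0.14, -0.40 and -0.53 with it, a difference of 1.02 ± 0.94, largest between T and TR. Here COL5A2 has the lower GC content (47.9% against 60.3%). In type VI the ratio of COL6A2 to COL6A1 was also lower with R (-0.31), though COL6A2 has the higher GC content (66.4% against 63.5%). COL6A3, with 53.2%, was lower relative to COL6A1. COL9A3 to COL9A2 differed by 0.09 ± 0.17 and overlapped between the groups. An exact permutation test of 3 libraries against 3 cannot go below p = 0.1, so it could not pass 0.05 for any of these ratios. With the GC and length trend removed the differences were -1.44 for COL6A3 to COL6A1, 0.41 for COL4A2 to COL4A1, 0.59 for COL4A6 to COL4A5, 1.31 for COL5A2 to COL5A1 and -0.39 for COL6A2 to COL6A1.

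**Figure D4:**
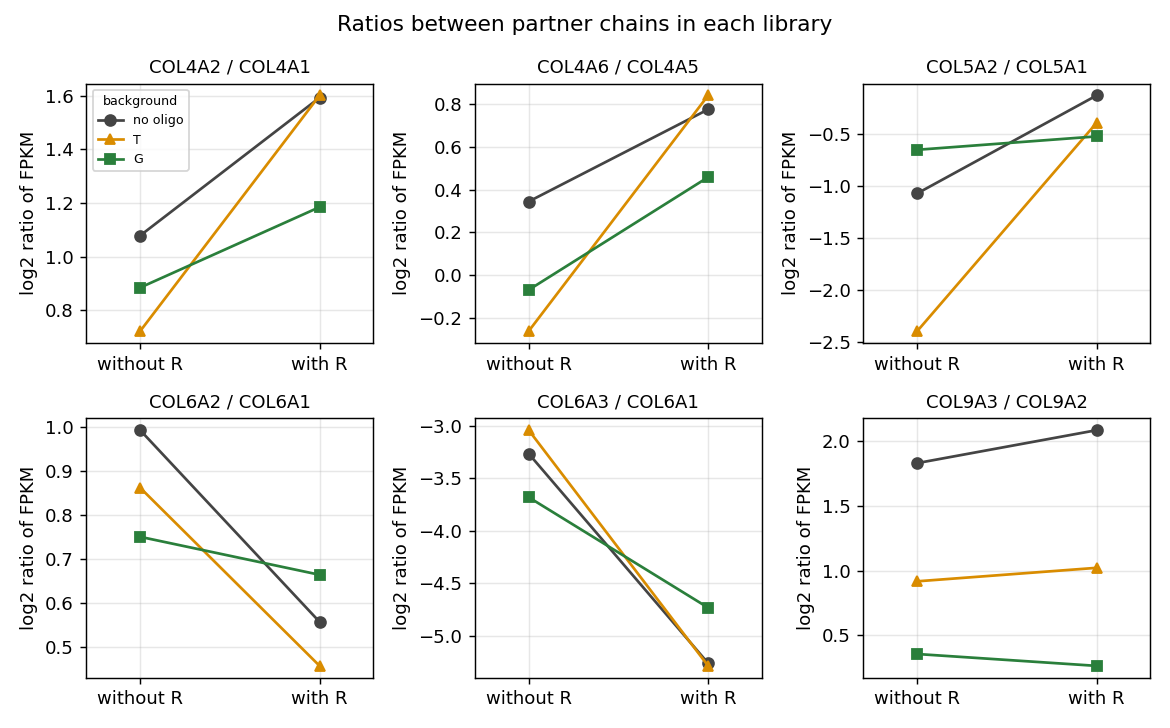
Each panel gives the log2 ratio of FPKM between 2 chain genes of 1 collagen type, without and with R, and lines join the libraries of 1 background (1 library per point). COL6A3 to COL6A1 lies between -3.68 and -3.04 without R and between -5.28 and -4.73 with it.

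G was compared without R (G against Control) and with it (GR against R). Collagen genes lay mostly higher with G in both, but none was called (edgeR, 0.0335% of all genes were). At an unadjusted p under 0.05 there were 4 of 31, against 11.9% of all genes, and DESeq2 called 1, COL7A1, where it called 2.07% of genes. Of 17 genes, 13 were higher in both pairs, against 44.6% of all genes, and 2 were lower in both, COL13A1 and COL9A3, against 18.8%. The median fold change over the tested members was 0.43, beside 0.09 over all genes.

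COL5A1 had log2 ratios of 0.64 in G against Control and 0.67 in GR against R, and COL18A1 had 0.86 and 0.77. COL4A5 had 0.91 and 0.58, and COL27A1 0.44 and 0.53. COL6A1 had 1.03 without R and -0.09 with it, and COL1A1 0.66 and 1.88, so the larger ratio belonged to COL6A1 without R and to COL1A1 with it. On the scale of FPKM + 1 COL6A1 alone of the 17 was at least 2-fold different in G against Control, where 3.73% of all genes were, and COL1A1 alone in GR against R, where 7.3% were. With a pseudocount of 0.1 COL5A2 and COL4A5 were also higher and COL17A1 lower in G against Control, 4 of 17 against 10.3% of all genes. Among low genes COL7A1 had a fold change of 2.03, SE 0.50 (edgeR adjusted p = 0.282) and COL8A1 one of 1.78, SE 0.54 (0.347). COL9A3 had one of -0.99, SE 0.35 (adjusted p = 0.391).

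The summed level of fibroblast and mural cell markers was also higher in G and GR. The 7 listed genes summed to 22.3 FPKM in G and 17.7 in GR, against 7.67 in Control, 9.17 in T, 10.4 in R and 11.3 in TR, with PDGFRA and THY1 giving most of the sum in G, at 6.91 and 8.43 FPKM. None was called for G, and 6 of 6 tested had a fold change above 0, beside 55.2% of all genes. Not all were higher in each pair, since FAP was 0.941 FPKM in GR against 1.46 in R and RGS5 0.497 against 0.595. Of the fibroblast collagens, COL1A2 and COL3A1 were at or near 0 in all 6 libraries, as was the marker DPT. COL1A1 stood at 85.7, 30.5 and 136 FPKM in Control, T and G. With R its level was 18.6, 29.6 and 71.1 FPKM in R, TR and GR. The part of such cells in the result was not tested. If the source names hold, GR and R are 1 cell line while G and Control are not.

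T was compared in the same way. No collagen gene was called for T, where edgeR called 0.00478% of all genes and DESeq2 0.129%, and DESeq2 called no collagen gene either. COL7A1 was the one gene with an unadjusted p under 0.05 (log2 fold change 1.55, SE 0.49), against 3.67% of all genes. In T against Control COL1A1 and COL17A1 were at least 2-fold lower on the scale of FPKM + 1, 2 of 17 against 4.7% of all genes, at -1.46 and -1.12. In TR against R none was 2-fold different, against 0.845%. Of the 17, 9 were higher in both pairs, against 30.1% of all genes, among them COL6A2 (0.31 and 0.22), COL6A1 (0.44 and 0.32) and COL5A1 (0.38 and 0.26). Only COL9A3 was lower in both (-0.12 and -0.0016), against 14.7%. The median fold change for T was 0.19, beside 0.02 over all genes. T against Control and G against Control share the Control, and TR against R and GR against R share R.

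**Figure D5:**
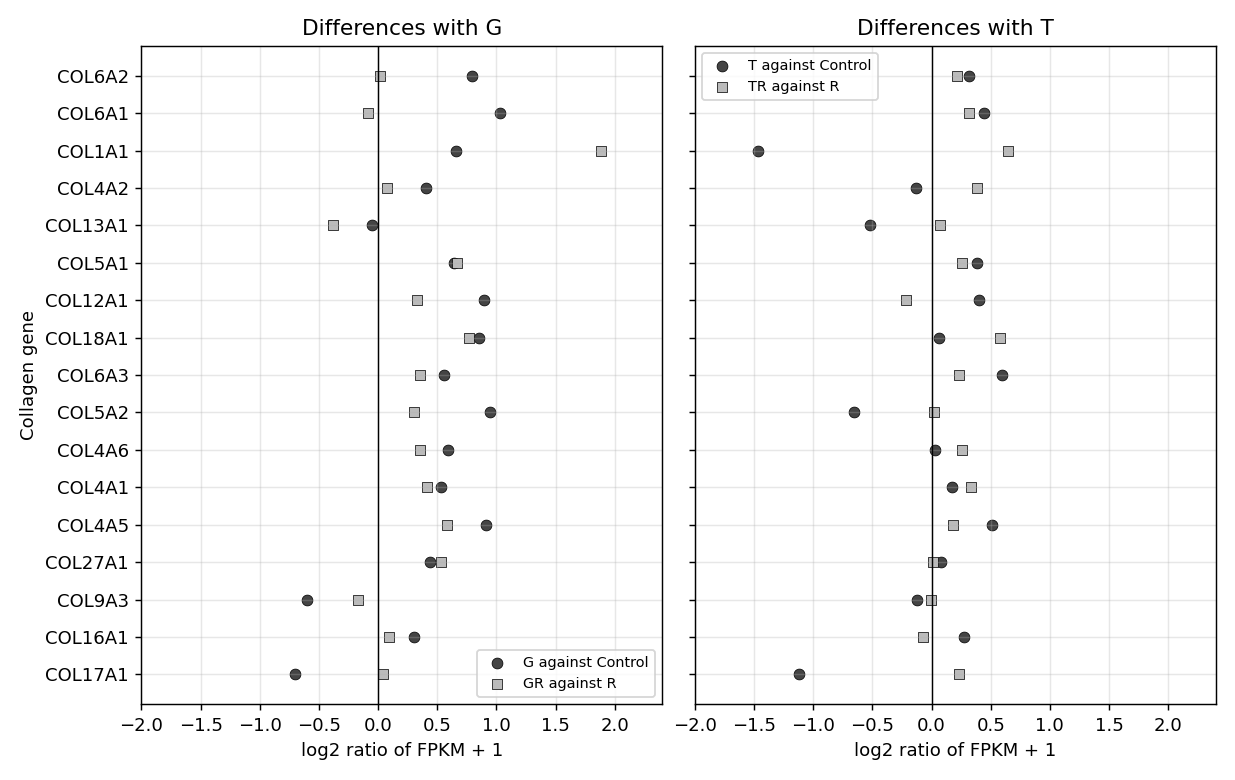
For the same 17 collagen genes, points give the log2 ratio of FPKM + 1 with G (left) and with T (right), without R (dark circles) and with R (pale squares), 1 pair of libraries per point. With G both points lie above 0 for 13 genes, and with T COL1A1 lies at -1.46 without R and 0.65 with it.

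Genes that make, handle or read collagen were described from lists of known roles. For R, 1 of 8 tested collagen receptors, 1 of 6 collagen-degrading proteases, 1 of 12 fibril partners and 3 of 12 genes of TGF-beta signalling, a pathway that induces collagen genes, were called higher and none lower, beside the 2.5% of all genes. None of 20 genes of collagen modification and folding, 20 of export, trimming and crosslinking, and 15 basement membrane partners was called for R. The list medians of the fold change for R ran from 0.28 (export, trimming and crosslinking) to 0.56 (fibril partners), beside -0.06 over all genes. No gene of these lists was called for T or G. For G the medians were -0.10 for modification and folding, -0.11 for export, trimming and crosslinking, 0.55 for receptors, -0.58 for proteases, 0.27 for basement membrane partners, 0.79 for fibril partners and 0.52 for TGF-beta signalling, beside 0.09 over all genes.

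TGFB1, the gene of the growth factor TGF-beta 1, stood at 18.8, 18.8 and 23.0 FPKM in Control, T and G and at 56.3, 61.6 and 49.9 FPKM in R, TR and GR, with no overlap, and rose by 1.67 ± 0.25 (log2 fold change ± SE, edgeR adjusted p = 0.0256). SMAD7, an inhibitor that the pathway induces, rose by 1.83 ± 0.32 (adjusted p = 0.0378), from 0.286, 1.27 and 0.936 to 1.38, 2.70 and 2.80 FPKM. LTBP1, which stores TGF-beta in the matrix, rose by 1.54 ± 0.30 (0.0446). Its level was 0.453, 0.789 and 1.78 FPKM without R and 1.44, 2.27 and 3.19 with it, and G lay above R. MMP1, the interstitial collagenase, stood at 3263, 3672 and 2662 FPKM without R and 7919, 6090.0 and 4406 FPKM with it and rose by 1.11 ± 0.18 (adjusted p = 0.0311). MRC2, an endocytic receptor that takes up cleaved collagen, rose by 1.73 ± 0.28 (0.0339). It stood at 2.52, 5.33 and 14.2 FPKM without R and 10.3, 16.01 and 27.6 with it, and G lay above R. THBS1, a matricellular glycoprotein, rose by 1.79 ± 0.33 (0.0420). It stood at 3.51, 3.45 and 21.2 FPKM without R and 9.49, 18.2 and 41.1 with it, and G lay above R and TR. All 6 lost the call without any 1 of Control, T, R and TR, with no filter on low counts, and with the source-name line as a term, where their log2 fold changes were 0.81 (MMP1) to 1.65 (SMAD7). Those fold changes were 1.12 (MMP1) to 1.83 (SMAD7) with no filter, where 0.0712% of all genes were called. Without 1 of the 4 libraries they were 0.93 (MMP1) to 2.06 (SMAD7), and 0.289% to 0.643% of all genes were called. MRC2 (1.40) and SMAD7 (1.58) also lost it with the GC and length trend removed. MRC2, THBS1 and TGFB1 overlap another gene on the same strand and are uncertain.

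Other genes of these lists, named from the 2 highest and 2 lowest for R in each, were not called. Log2 fold changes for R were 0.95 for PLOD1 and 0.75 for PLOD3, lysyl hydroxylases, -0.31 for PLOD2, of the same family, and -0.06 for P3H4, a partner of these enzymes. Among export and trimming genes they were 0.93 for the coat subunit SEC13, 0.77 for the procollagen protease enhancer PCOLCE, -0.61 for the procollagen protease ADAMTS2 and -0.55 for KLHL12, which enlarges the export coat for collagen. The receptors DDR2 and ITGB1 stood at -0.35 and 0.31, and the proteases MMP2 and MMP14 at 1.08 and 0.79. SPARC, a collagen-binding protein, stood at 1.34, the microfibril gene FBN2 at -0.25 and the tenascin gene TNC at -0.03. The laminin genes LAMC1, LAMA4 and LAMB3 had 0.49, 0.53 and -0.44, and the agrin gene AGRN -0.31. The ligand TGFB2 and the receptor TGFBR2 had 0.78 and -0.13.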

How the data were processed

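Groups were taken from the sample titles. Libraries were made from oligo(dT)-selected mRNA with strand marking by dUTP and read as pairs of 150 bases, per the labels' protocols. Tools listed without a role in the submitters' processing notes are DESeq2, edgeR, StringTie 2.1.6, HISAT2 2.2.1 and cutadapt 1.9. The authors' deposited read counts are whole numbers, and their deposited FPKM values are scaled to library depth with 1 length per gene. The build was not given in the sources used here. GENCODE v29 (GRCh38) holds 92.6% of the gene identifiers, of which 99.89% overlap its coordinates. Of the members, 3 overlap another gene on the same strand and 13 one on the other strand.

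Members and lists were chosen with earlier results of these data known. An additive model (oligo, R) was fitted to counts of all genes passing filterByExpr with edgeR 4.0.16 (quasi-likelihood, TMM, Benjamini-Hochberg) in R 4.3.3, and tested on simulated data. DESeq2 1.42.0 and limma 3.58.1 were alternatives. Nothing in the labels says that cultures were independent, so p-values reflect the spread of these libraries, which may be technical. Pairs of libraries were compared as log2 ratios of FPKM + 1, which understates changes of low genes, among 13259 genes reaching 1 FPKM. Named were members with a mean of at least 1 FPKM or 10 counts in a library, and, of each other list, called genes and the 2 highest and 2 lowest for R with a mean of at least 5 FPKM. COL3A1 and COL14A1 were named beyond that rule, and some list genes it covers are not reported here. Promoter windows are from RefSeq (GRCh38.p14), and 28 of the 37 members matched. GC content and length come from the longest GENCODE v29 transcript. All per-sample columns were used.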

Additional observations from a re-analysis of the deposited data

Results flagged for a closer look

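COL1A1 was set apart because T went with a lower level without R and a higher level with it. The log2 ratio of FPKM + 1 was -1.46 in T against Control (30.5 against 85.7 FPKM) and 0.65 in TR against R (29.6 against 18.6 FPKM), a difference of 2.11. With 1 library in each group this difference was not tested. It was the only collagen gene with a mean of at least 1 FPKM whose ratios lay at least 0.5 from 0 in opposite directions in 2 backgrounds.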

How the results depend on the processing

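The fit keeps the oligo background as a term, and the labels give no replicate numbers for a further block. The count of collagen genes called for R, 0, became 7 with DESeq2 and 1 (COL6A3) with limma on log2(FPKM + 1), where 14.2% of all genes were called, and was 0 to 5 when 1 library was left out. For G, 0 became 1 with DESeq2, and for T it was 0 under every setting run. The median fold change for R, 0.12, reversed to -0.14 with the source-name cell line as a term, -0.082 with the GC and length trend removed and -0.039 with limma, and ran from -0.11 to 0.16 when 1 library was left out. The last range was 0.059 to 0.29 for T and 0.24 to 0.58 for G. With a pseudocount of 0.1, the 2-fold count became 5 in TR against T, 1 in GR against G and 4 in G against Control, where the shares of all genes rose to 31.0%, 9.58% and 10.3%. With median-ratio scaled counts + 10 it became 4 in R against Control (19.6% of all genes), 6 in TR against T (30.3%), 1 in GR against G (8.93%) and 2 in G against Control (8.55%), and with the GC and length trend removed 2 in GR against G (2.82%). The cause of these differences was not tested. Alternatives for the chain ratios were chosen after seeing the data. With the GC and length trend removed the difference of COL9A3 to COL9A2 with R was 0.022 in place of 0.09, and without 1 pair of libraries that of COL6A3 to COL6A1 was -2.12 to -1.52. Depth limits the 6 members that were not tested.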

Other observations

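COL17A1, the hemidesmosome collagen, had log2 ratios of FPKM + 1 of -0.74 in R against Control, 0.61 in TR against T and 0.01 in GR against G, from levels of 0.27 to 1.76 FPKM. COL21A1 had 128 counts in T and 12 in TR, against 12 in Control and 14 in R. The log2 ratio of COL9A3 to COL9A2 differed with G by -1.48 in G against Control and -1.82 in GR against R, and with T -0.91 and -1.06. It was the chain ratio with the smallest mean difference with R.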
